A study of Equus caballus with 16 samples.

Results

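The 150 genes described here are those whose level differed most from culture to culture among horse tenocytes that carried a control hairpin. They were taken from 21689 horse genes in a study of Scleraxis, in which 8 cell lines were each sequenced after receiving either a scrambled control hairpin, called non-target (NT), or one directed at SCX (shSCX). The level of a gene was its share of the counts of the library, in CPM (counts scaled to a common library total), taken as log2(CPM + 1). Genes entered the ranking when their mean over the 8 NT libraries was at least 5 CPM, when the log2 ratio of shSCX to NT averaged between -0.3 and 0.3 over the 4 fetal lines, and when they were not among the 100 most abundant. This left 6185 ranked genes, and the 150 with the largest standard deviation (SD) over the 8 NT libraries were taken. The genes were thus chosen by their measured spread over the NT libraries and by the mean fetal ratio, and both are given below as descriptions only.

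The adult cultures were lines TB171012, TB180412, TB130911 and S, from horses of 2 to 10 years. The fetal cultures were named by gestation, at 271, 316, 319 and 320 days (271d, 316d, 319d and 320d). Each line gave 1 NT and 1 shSCX library, which makes 4 groups of 4 libraries: adult NT, adult shSCX, fetal NT and fetal shSCX. All of the cells carried the TRC2-pLKO.1-puro plasmid vector and grew in medium with 10% fetal bovine serum, so no library comes from cells without a vector. A single shSCX sequence, designed on human SCX, and a single scrambled NT sequence were used. TB180412 was at passage 5, TB130911, S and 319d at passage 8, and the others at passage 7. Each line was taken at 1 passage, so line and passage cannot be told apart.

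Tenocytes are the fibroblast-like cells of tendon, which build and maintain its collagen matrix. Scleraxis is a basic helix-loop-helix transcription factor of the tendon lineage and is needed for the formation of force-transmitting tendons. Cultures started from separate animals are separate biological samples, and a pair of libraries from the same culture shares the animal, the tissue sample and the passage. The deposited tables name genes by Ensembl identifier only. A search of the horse gene table at hand found a symbol for 0 of these 21689 names. SCX, tendon markers and markers of other cells were therefore not analysed here, the labelled cell type was not checked, and genes are named by identifier without a function. Library totals ran from 17628158 to 26157162 counts. In bulk libraries, fewer cells expressing a gene and less RNA per cell cannot be told apart.

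The SD of the 150 genes over the 8 NT libraries ran from 0.74 to 2.67 on the log2(CPM + 1) scale, with a median of 0.93. Among all ranked genes the median was 0.25. The last genes inside the limit had SDs of 0.7418 and 0.7405, and the first outside had 0.7396 and 0.7380, so the limit does not fall at a break. From the lowest to the highest NT library, a gene moved by a median of 2.69 on this scale, with quartiles of 2.38 and 3.20. Their mean level had a median of 14.6 CPM and reached 335 CPM, against a median of 30.8 CPM for the ranked genes, with no correction for gene length. Counting error alone would give an SD of at most 0.13 for any of them (median 0.09), well under the limit. A count that was not whole within 0.01 occurred in 14 of the 150 genes (9.33%) and in 7.34% of ranked genes. The source of these fractions was not tested.

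**Figure D1:**
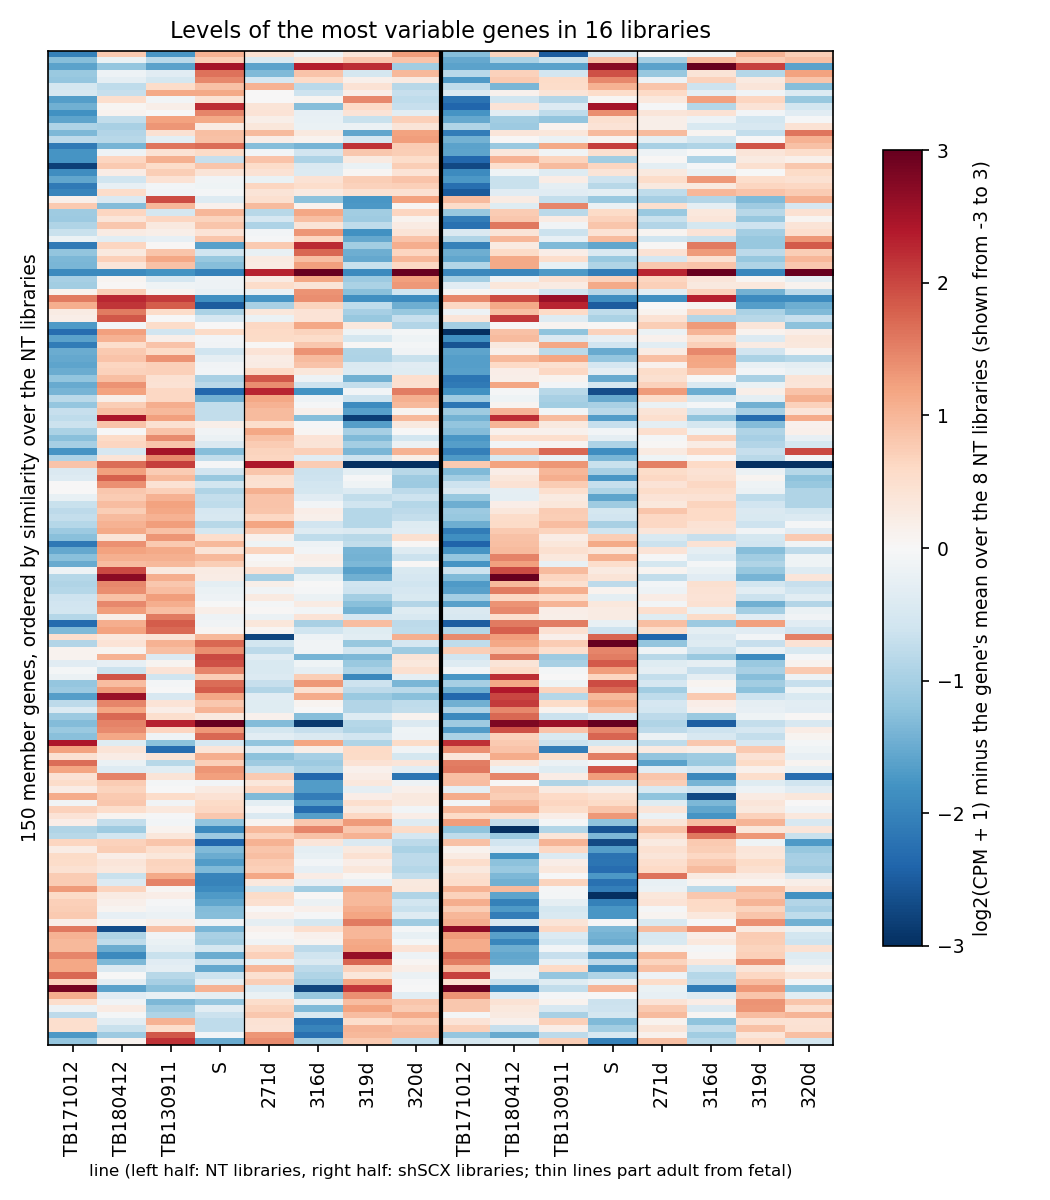
Levels of the 150 genes (rows, ordered by similarity over the NT libraries) in 8 NT and 8 shSCX libraries (columns), as log2(CPM + 1) minus the gene's mean over the NT libraries. Colours run from blue (lower) to red (higher), and blocks of rows that are red or blue in the NT library of a line are mostly the same colour in its shSCX library.

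The widest spreads belonged to genes that were all but absent from some cultures. ENSECAG00000037980, first by SD (2.67), had 405 counts in the NT library of 271d, 988 in 316d and 1101 in 320d. The third fetal line by gestation, 319d, had 3 counts, and the adult lines had 3 (TB171012), 3 (TB180412), 5 (TB130911) and 1 (S). The shSCX libraries repeated this, with 458, 860 and 818 counts in 271d, 316d and 320d, and from 0 to 7 in the other 5 lines. High and low lines were thus parted within the fetal group, not between the groups alone.

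ENSECAG00000009553, second by SD (2.52), was missing from the other side. Its NT levels were 31.7 CPM in TB171012, 55.8 in TB180412, 74.5 in TB130911, 16.6 in S, 94.6 in 271d and 29.6 in 316d, against 0.41 in 319d and 0.05 in 320d. The last of these is a single count. In shSCX libraries the values in the same order were 29.97, 40.5, 43.9, 10.3, 49.8, 26.3, 0.50 and 0.23 CPM. The 2 lowest lines were again 319d and 320d.

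ENSECAG00000018100 (SD 1.98) was present in 3 adult lines and 1 fetal line. It had 244 counts in the NT library of TB171012, 393 in TB180412, 346 in TB130911 and 186 in 316d, and 1, 2, 1 and 0 in S, 271d, 319d and 320d. With shSCX the present lines had 238, 284, 492 and 341 counts, and the 4 others 1, 1, 0 and 0. ENSECAG00000017205 (SD 1.96) was chosen for mention after its values were seen. Its NT counts were 349 in S, 308 in 316d and 288 in 319d, with 0 in TB171012, TB130911 and 271d, 8 in TB180412 and 9 in 320d. Its shSCX counts were 399, 985 and 233 in the first 3 of these lines and 0 in the other 5.

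Spread over several levels was seen too. ENSECAG00000020129 (SD 2.04) had NT levels of 7.35 CPM in TB171012, 56.4 in TB180412, 101 in TB130911 and 162 in S, and of 7.37, 1.81, 10.5 and 14.2 CPM in 271d, 316d, 319d and 320d. The highest and lowest of these differ 89.5-fold. With shSCX it had 8.83, 143, 124 and 245 CPM in the adult and 10.0, 2.74, 11.6 and 13.7 CPM in the fetal lines. Of the adult lines, 3 were far above every fetal line and TB171012 lay within the fetal range.

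**Figure D2:**
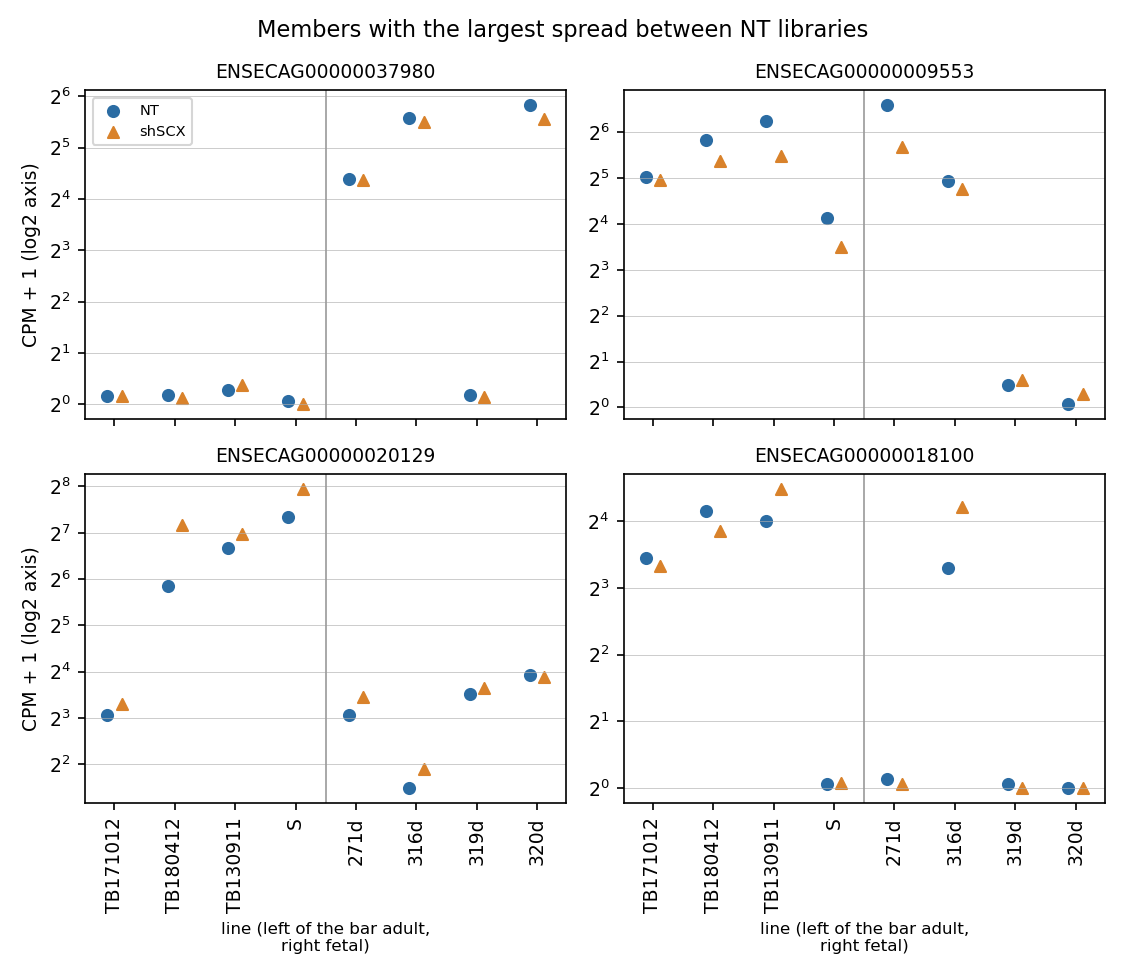
CPM + 1 (log2 axis) of 4 genes with the widest spread, in the NT (circle) and shSCX (triangle) library of each line, adult lines left of the grey bar and fetal lines right of it. The lines near 1 with NT are near 1 with shSCX as well, as in the 5 lines with 0 to 7 counts of ENSECAG00000037980. No line is near 1 in the panel of ENSECAG00000020129, where 316d is lowest with both hairpins.

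In all, 8 of the 150 genes had 3 or fewer counts in at least 1 NT library and 100 or more in another. These 8 genes gave 16 low values over the NT libraries, and 13 of the matching shSCX values were also at 3 counts or fewer, the highest being 9. They gave 32 values of 100 counts or more, of which 29 were also at 100 or more with shSCX, the lowest being 80. No value crossed from one class to the other. The low values were spread over 7 of the 8 lines, from 2 to 3 in each, and 316d had none. By contrast, 316d had 7 of the 32 high values. No other ranked gene met these limits; the choice was by SD.

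No culture was high for all of the genes. With NT, TB180412 was the highest line for 32 of the 150 genes, TB130911 for 31, S for 20, 319d for 19, 271d for 14, 320d for 12, and 316d and TB171012 for 11 each. The lowest line was TB171012 for 47 genes, 319d for 33, S for 25, 316d for 20 and 320d for 10. TB180412 was lowest for 7, and TB130911 and 271d for 4 each. TB180412, TB130911, 271d and 320d were thus more often highest than lowest, and TB171012, 319d, 316d and S more often lowest. The lowest line was not counted over all ranked genes. For TB180412 the share of members (21.3%) was close to that of all ranked genes, of which it was the highest NT library for 22.8%. TB130911 was highest for 20.7% of members and 9.18% of ranked genes, and TB171012 for 7.33% of members and 16.1% of ranked genes.

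A minority of the genes marked out a single culture. In 19 genes 1 NT library was at least 2-fold above all 7 others (on the log2(CPM + 1) scale), 8 of them in TB180412, 4 in S, 2 each in TB171012, TB130911 and 319d, and 1 in 316d. In 35 genes 1 NT library was at least 2-fold below all others, 13 of them in TB171012, 9 in 316d and 5 each in S and 319d. Where a single line stood low with NT, it was the lowest shSCX library too in 32 of the 35 genes, and in 13 of 13 for TB171012. Where a single line stood high it was also the highest with shSCX in 15 of 19, which held in 8 of 8 for TB180412 and in 0 of 2 for TB130911.

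The genes did not form 1 co-varying set. The first component of their NT levels took 32.0% of the variance, the second 19.2% and the third 16.8%. Component 1 set TB171012 and 319d (weights 0.55 and 0.53) against TB180412 and TB130911 (-0.47 and -0.39), and so cut across the stages. Component 2 was led by S (0.84). Component 3 set 316d and 320d (0.58 and 0.49) against TB171012 and TB180412 (-0.42 and -0.38). Of 11175 pairs of these genes, 117 (1.05%) had r above 0.9 over the 8 NT libraries, against 1.41% of pairs of ranked genes, and 79 of the 150 genes were in such a pair. Over the shSCX libraries the same 117 pairs had a median r of 0.90, against 0.84 for the pairs of ranked genes found in the same way. A correlation over 8 points is loose, and a pair shares the libraries.

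The pattern over lines was largely kept when the hairpin was changed. For each gene the 8 NT levels were correlated with the 8 shSCX levels of the same lines. The median r of the 150 genes was 0.89, with quartiles of 0.82 and 0.93 and a range of 0.21 to 0.9995. It was above 0.8 in 118 genes (78.7%) and above 0.9 in 69 (46.0%), while all ranked genes had a median r of 0.75, with 36.5% above 0.8. The rule asked for a wide spread over the NT libraries, so the difference from the ranked genes was not tested. Within the adult lines the median r was 0.93 over 4 lines (ranked genes: 0.86), and within the fetal lines 0.88 (ranked genes: 0.80).

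Spread over the 8 lines was as wide in the shSCX libraries as with NT. The shSCX libraries did not rank the genes but share their cultures with the NT libraries. The fetal ones also entered the rule through the mean fetal ratio. The median SD over the 8 shSCX libraries was 0.97, against 0.93 with NT, and the lowest of the 150 was 0.41. Among ranked genes the shSCX median was 0.27. By stage, the median SD of the 150 genes was 1.10 with shSCX against 1.03 with NT in adult lines, and 0.69 against 0.80 in fetal lines. For ranked genes these medians were 0.315 against 0.2534, and 0.2004 against 0.2455. The same line was highest with both hairpins in 76 genes (50.7%, against 41.3% of ranked genes), and the same line was lowest in 101 (67.3%, against 42.1%). For TB171012 44 of the 47 genes lowest with NT were lowest with shSCX. TB130911 kept the highest place in 6 of its 31 genes, the smallest share of any adult line.

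Libraries were also compared over the 150 genes, with levels centred on the gene's mean for each hairpin. Each shSCX library correlated most with the NT library of its own line in 8 of 8 lines, and also over all ranked genes. Over the 150 genes r ran from 0.76 (TB130911) and 0.81 (316d) to 0.93 (TB171012) and 0.96 (S). The highest r with another line's NT library was 0.36, between shSCX of TB171012 and NT of 319d. Over all ranked genes the own-line r was 0.47 for 316d, whose next best line (271d) had 0.38. The rule chose the 150 genes by a wide NT spread and a small mean fetal ratio, which both bear on the own-line r. Nothing is therefore read from the difference between the 150 genes and the ranked genes. The points here are genes, which are not independent replicates, and a pair shares its culture.

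**Figure D3:**
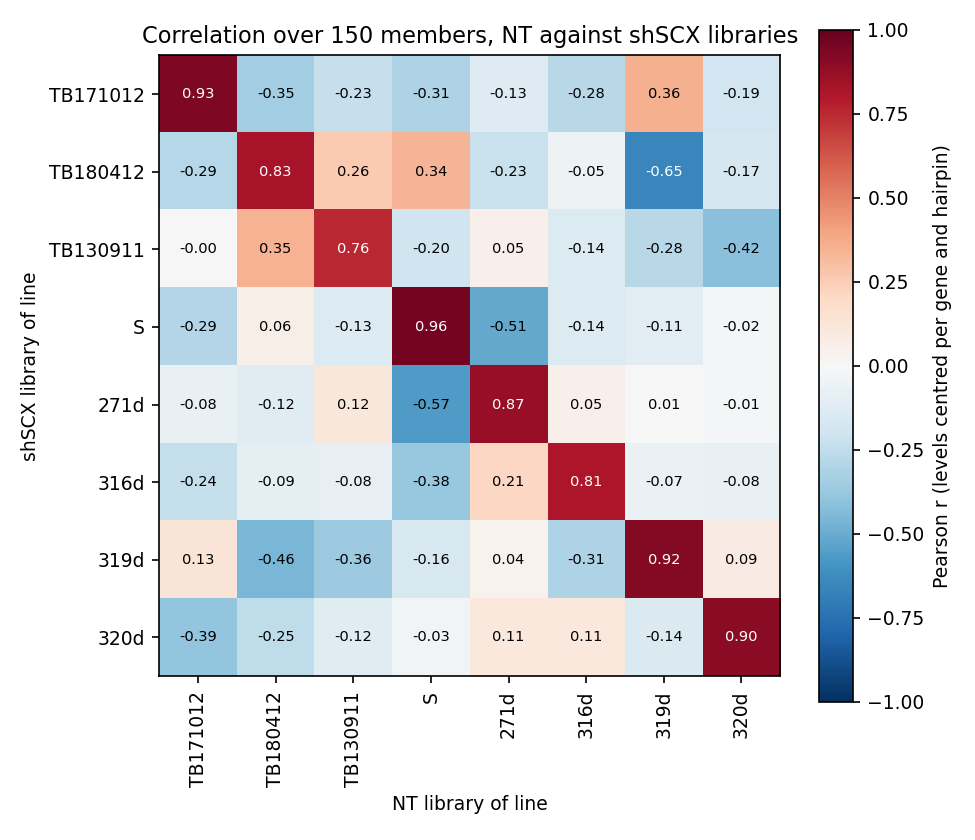
Pearson r over the 150 genes between each shSCX library (rows) and each NT library (columns), with the value in each cell. Own lines lie on the diagonal, at 0.76 to 0.96, and no cell off the diagonal is above 0.36.

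Most of this spread lay within the stages, but the design itself favours this outcome. Each stage holds several lines, so a gene with no stage difference would also tend to have most of its spread within stages. The shares were not compared with those expected by chance, so they are a description and do not decide whether stage had an effect. The median share of a gene's sum of squares over the 8 NT libraries that lay between the adult and fetal means was 9.15%, and it was 50% or more in 7 of the 150 genes (4.67%). Ranked genes had a lower median, 4.93%, and 1.71% of them were at 50% or more. With shSCX the median share was 11.2% and the number 9 (6.0%), against 6.29% and 2.96% for ranked genes. Adult and fetal NT libraries did not overlap in 5 genes, 3 higher in adult and 2 higher in fetal lines. Among ranked genes 0.825% did not overlap, and since the spread over these libraries chose the genes nothing is read from the NT count. With shSCX 6 genes did not overlap, 3 in each direction, where the share over ranked genes was 1.58%. These libraries share their cultures with the NT libraries that chose the genes, so nothing is read from this count either. SD within the adult NT group was larger than within the fetal NT group in 106 genes, with medians of 1.03 and 0.80. Among ranked genes it was larger in 3457 of 6185, with medians of 0.2534 and 0.2455. These NT values are part of the spread that chose the genes, so the count of 106 is a description. With shSCX the adult SD was larger in 116 genes (medians 1.10 and 0.69), but for all ranked genes this also held in 4827 of 6185.

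Fetal and adult levels were tested over the 8 shSCX libraries with edgeR's quasi-likelihood test, adjusted over 12482 genes by the Benjamini-Hochberg method. Of the 148 members that passed the filter on low counts, 0 were called at adjusted p under 0.05, where 0.00801% of all tested genes (1 gene) were called. At unadjusted p under 0.05 there were 24 members (16.2%), against 4.43% of all tested genes. DESeq2 called 3 members (all tested genes: 0.441%) and limma voom 0. The fetal shSCX libraries entered the choice of genes through their mean ratio to NT. Besides, NT libraries of the same cultures chose the genes, and the pattern over lines was largely kept (median r 0.89). The counts of members are therefore a description and are not independent of the choice.

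The members named here were those nearest to a call between stages in each direction, and edgeR called none of them. ENSECAG00000008270 had 11.7, 2.60, 15.0 and 3.93 CPM in the shSCX libraries of TB171012, TB180412, TB130911 and S. In 271d, 316d, 319d and 320d it had 53.4, 139, 36.1 and 37.2 CPM, so every fetal library was above every adult one. The log2 fold change was 2.94 (SE 0.64, edgeR adjusted p = 0.538; DESeq2 adjusted p = 0.000303). In NT libraries it ran from 6.78 to 30.5 CPM in adult and from 43.0 to 80.6 CPM in fetal lines. ENSECAG00000014081 was also higher in each fetal shSCX library, at 49.6 to 63.9 CPM against 7.65 to 33.1 CPM in adult ones (log2 fold change 1.33, SE 0.37, edgeR adjusted p = 0.863). DESeq2 did not call it (adjusted p = 0.0992). Its lowest adult value was that of TB171012, and the other adult shSCX libraries had 22.4 CPM or more.

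In the other direction, ENSECAG00000000026 had 8.22, 9.07, 6.87 and 14.2 CPM in the adult shSCX libraries of TB171012, TB180412, TB130911 and S. It had 4.06, 2.59, 3.88 and 3.06 CPM in 271d, 316d, 319d and 320d, again with no overlap (log2 fold change -1.57, SE 0.32, edgeR adjusted p = 0.459; DESeq2 adjusted p = 0.0031). For ENSECAG00000020129, whose levels are given above, the log2 fold change was -3.83 (SE 0.89, edgeR adjusted p = 0.678; DESeq2 adjusted p = 0.0102), and TB171012 lay below 3 of the 4 fetal libraries. ENSECAG00000037980 did not pass the filter over all 8 shSCX libraries, having counts above 7 in only 3 of them. Without 319d it passed and was called in shSCX libraries (log2 fold change 8.08, SE 0.67, edgeR adjusted p = 0.00794). Whether it passed the filter thus hung on 1 fetal line, the one that all but lacked it, so nothing is read from the call. With 319d kept and no filter on low counts, edgeR called 0 members in shSCX libraries. Over NT libraries 0 of 148 members were called by edgeR, where 0.00807% of all tested genes were. At unadjusted p under 0.05 there were 13 members (8.78%), against 2.81% of all tested genes. DESeq2 called 1 member (all tested genes: 0.178%) and limma voom 0. That contrast holds the libraries that chose the genes.

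In adult lines 4 of the 150 genes were called falling with shSCX by edgeR and none were called rising. The test was edgeR's quasi-likelihood test over 12513 genes with the line as a block. The share was 4 of 148 tested members (2.7%), where 2.6% of all tested genes were called, so it was near the background. Falling calls made up 0.663% of all tested genes. The rule did not use the adult ratio, but the adult NT libraries, which are one side of it, took part in the ranking. DESeq2 called 22 members, 20 of them falling, against 5.67% of all tested genes.

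The 4 genes called falling had like patterns in the NT libraries, with r of 0.81 to 0.96 between them over the 8 lines. Each was highest in TB130911 with NT. ENSECAG00000020007 had 12.7 CPM with NT and 6.31 with shSCX in TB171012, 25.8 and 12.1 in TB180412, 31.7 and 18.3 in TB130911, and 8.76 and 4.31 in S. It fell in each of the 4 pairs (log2 fold change -0.98, SE 0.11, edgeR adjusted p = 0.00841), by less than the distance between the lines. In fetal lines the log2 ratio was 0.77 in 316d, and in 271d, 319d and 320d it was -0.45, -0.03 and -0.26. ENSECAG00000019505 went from 3.43, 10.03, 22.1 and 4.06 CPM to 1.61, 5.10, 6.39 and 2.25 CPM in TB171012, TB180412, TB130911 and S (log2 fold change -1.20, SE 0.19, edgeR adjusted p = 0.0227). Its fetal ratios ran from -0.77 (271d) to 0.36 (316d).

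The other called genes, ENSECAG00000016977 and ENSECAG00000015542, lay outside the rule for naming and are given because they complete the 4. ENSECAG00000016977 went from 33.4, 107, 121 and 50.1 CPM to 20.9, 64.0, 71.7 and 35.1 CPM in the same order of lines. Its log2 fold change was -0.67 (SE 0.08, edgeR adjusted p = 0.009998). In fetal lines its log2 ratio was below 0 in 271d, 316d and 320d, at -0.73, -0.16 and -0.33, and was 0.15 in 319d. ENSECAG00000015542 went from 42.4, 129, 158 and 39.3 CPM to 23.7, 77.8, 85.5 and 31.7 CPM, with a fitted log2 change of -0.69 (SE 0.11, edgeR adjusted p = 0.0256). In 316d ENSECAG00000015542 went the other way, from 63.5 to 108 CPM, while in 271d it went down from 122 to 83.9 CPM (log2 ratio -0.53). Its log2 ratios in 319d and 320d were 0.03 and -0.04. NT libraries of the 4 genes overlapped the shSCX libraries of other lines, and only the pairs within lines parted them. Without the line as a block none of the 4 passed, and without line S none passed either (edgeR adjusted p 0.0624 to 0.0939). Without TB171012 only ENSECAG00000020007 passed. Without TB130911 ENSECAG00000019505 and ENSECAG00000015542 were lost, and without TB180412 ENSECAG00000015542 was lost (edgeR adjusted p 0.0729, 0.0866 and 0.0717). ENSECAG00000015542 was also lost with all 16 libraries in one fit (edgeR adjusted p = 0.0519).

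**Figure D4:**
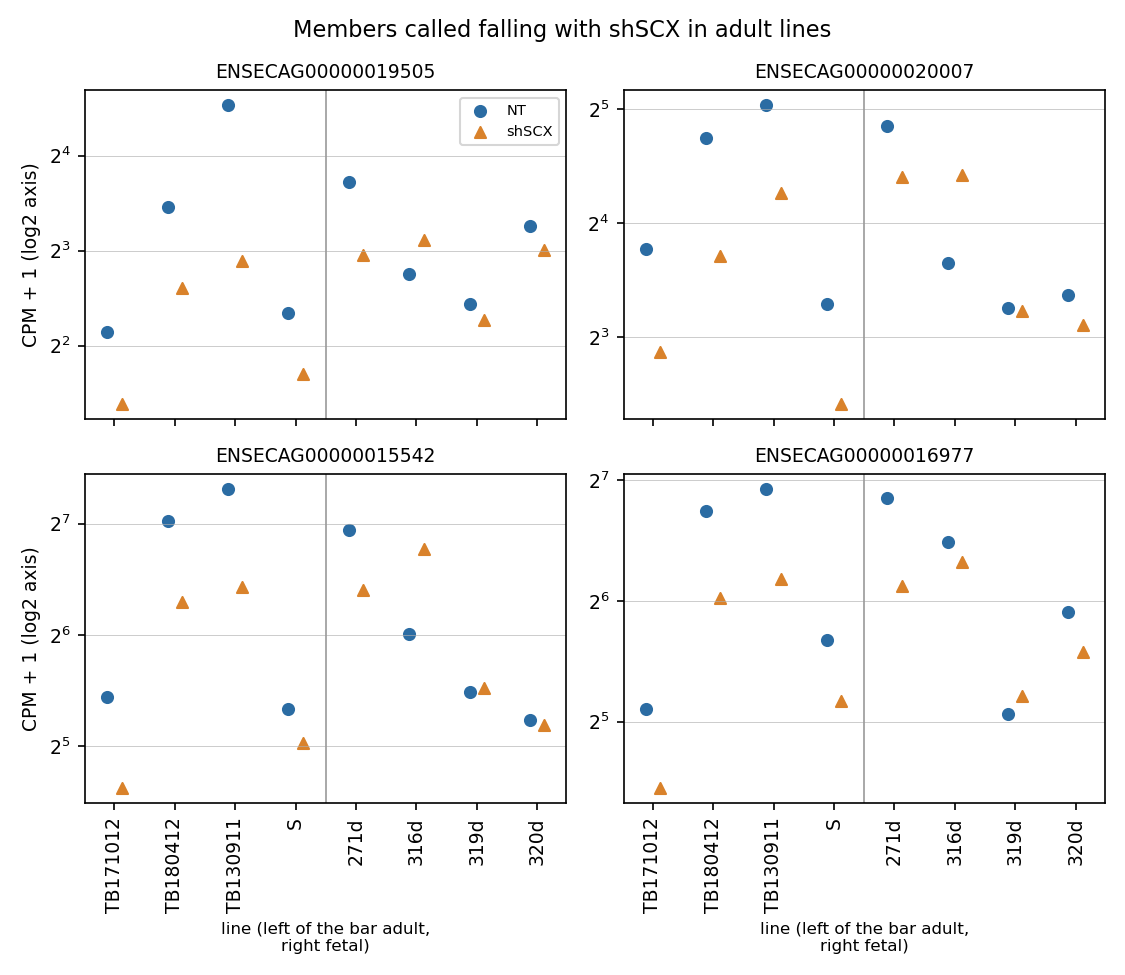
CPM + 1 (log2 axis) of the 4 genes called falling in adult lines, NT (circle) and shSCX (triangle) in each line, adult lines left of the grey bar. The triangle is below the circle in all 4 adult lines of each panel, and in 316d it is above the circle in 3 of the 4 panels.

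Of the members that moved up in adult lines none passed the test. The nearest to it were ENSECAG00000029840 (0.70 as log2 fold change, with SE 0.18 and edgeR adjusted p = 0.101) and ENSECAG00000020129 (0.64, SE 0.18, edgeR adjusted p = 0.131), and DESeq2 called both (adjusted p = 0.0145 and 0.0249). ENSECAG00000029840 also had the lowest r of the 150 genes between its NT and shSCX patterns, at 0.21. In its NT libraries 320d was highest, at 44.5 CPM, and TB171012 lowest, at 8.00 CPM. In its shSCX libraries S was highest at 39.4 CPM, and 320d had 18.7 CPM. Its level changed by a log2 ratio of 1.28 in S and 1.27 in 319d, and by -1.20 in 320d.

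Fitted changes of the members leaned downward in adult lines. At unadjusted p under 0.05 there were 44 members (29.7%), 37 falling and 7 rising, where 17.5% of all tested genes were below that value, 1049 falling and 1140 rising. The median log2 fold change was -0.21 over the 148 tested members and -0.03 over all tested genes. Of the tested members 68.2% had a value below 0, against 54.97% of all tested genes. The ratio was below 0 in all 4 adult lines for 35 of the 150 genes (23.3%, against 13.0% of ranked genes) and above 0 in all 4 for 6 (4.0%, against 9.35%). These counts describe the list: the adult NT libraries helped to choose the members, which are not independent of each other.

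In fetal lines the rule itself kept the mean ratio near 0. Accordingly 0 of 149 tested members were called by edgeR (8 at unadjusted p under 0.05, where 36.4% of all tested genes were; 2 called by DESeq2, where 20.8% of all tested genes were; 0 by limma voom), and nothing is read from this beside the 17.2% of all tested genes that were called. Ratios of both signs among the fetal lines occurred in 140 of the 150 genes (93.3%) and in 71.7% of ranked genes, a count on which the limit on the mean bears. The difference between the fetal and adult effects was tested in all 16 libraries with the line as a block. The rule limited the fetal side of this difference, so its values are given as a description. It was called in 0 of 150 members and in 0% of 12888 genes by edgeR. At unadjusted p under 0.05 there were 17 members (11.3%, against 15.6% of all tested genes), and DESeq2 and limma voom called 0 members (all tested genes by DESeq2: 0.295%). For the 4 genes called in adult lines the differences, fetal minus adult, were 0.87, 0.84, 0.28 and 0.63 for ENSECAG00000020007, ENSECAG00000019505, ENSECAG00000016977 and ENSECAG00000015542 (edgeR adjusted p 0.307, 0.307, 0.415 and 0.307).

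The ratios of single lines are a description only, because the NT level on one side of each ratio took part in choosing the genes. A log2 ratio of at least 1 in size was found for 27 of the 150 genes in TB180412, 23 in TB130911, 16 in 316d, 7 in TB171012, 6 in 271d, 4 in S, and 3 each in 319d and 320d. As a share this was above that of ranked genes in each of the 8 lines. It was 15.3% in TB130911 against 0.808% of ranked genes, 10.7% in 316d against 0.388%, and 2.0% in 320d against 0.0485%. In TB180412, where the count was highest, 2.91% of ranked genes passed the same limit. The direction differed by line. Of these changes 21 of 23 were downward in TB130911 and 19 of 27 in TB180412, while 12 of 16 were upward in 316d. With NT, TB130911 was the highest line for 31 of the genes and 316d stood alone at the low end in 9, as given above. With a pseudocount of 5 CPM in place of 1 the counts fell to 15 in TB180412, 12 in TB130911, 4 in 316d, 1 in 319d and 0 in TB171012. A line has 1 library per hairpin, so these differences have no replicate check.

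The same holds for the middle of the list, which differed by line. The median log2 ratio of the 150 genes was -0.13 in TB171012, -0.04 in TB180412, -0.30 in TB130911 and -0.10 in S. Of the fetal lines, 316d and 319d had medians of 0.21 and 0.11, and 271d and 320d of -0.15 and -0.03. Ranked genes had medians of -0.07 to 0.06 over the 8 lines. The quartiles over genes reached both sides of 0 in each of the 8 lines. All genes tested in the 16 libraries had medians of 0.06 to 0.14 in the 4 fetal lines on this scale, which divides by library totals.

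**Figure D5:**
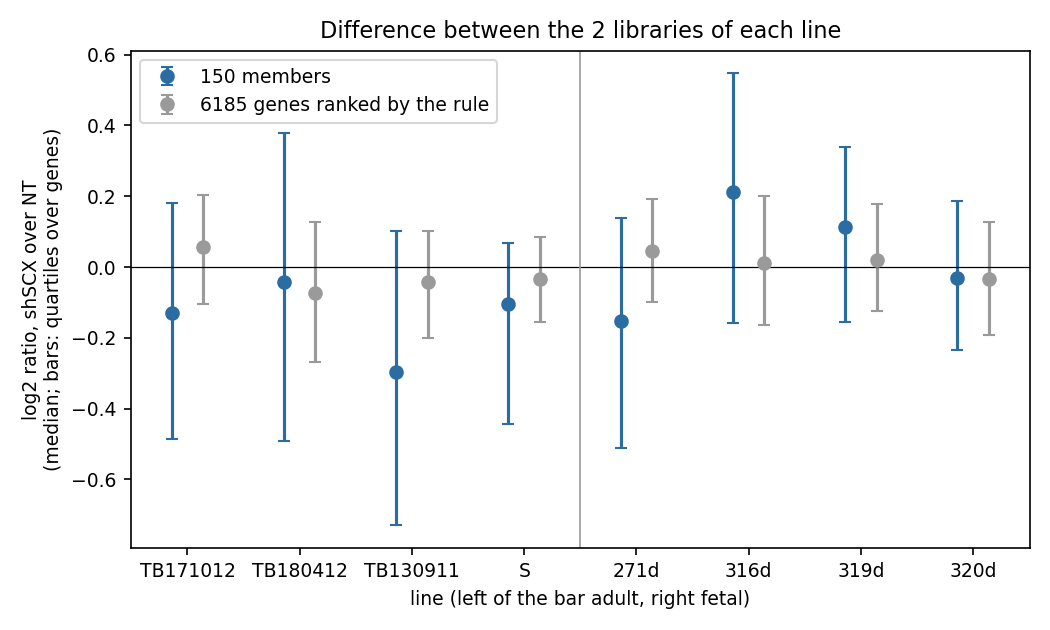
Median log2 ratio of shSCX over NT in each line, with quartiles over genes as bars, for the 150 genes (blue) and the 6185 ranked genes (grey), adult lines left of the grey bar. The blue bars are wider in each line, with medians from -0.30 in TB130911 to 0.21 in 316d.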

How the data were processed

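Per the submitters' processing notes, FastQC, Salmon and R 3.5.2 were used. No label used here states the transcript set, the genome build or how transcripts were summed to genes. The authors deposited estimated counts per Ensembl gene, not scaled, in an adult and a fetal table. The table columns prefixed TB without a number were assigned to TB171012, because every other adult title had columns of its own. Counts were divided by column totals for CPM, and rounded for the tests.

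Tests used edgeR 4.0.16 (TMM, filterByExpr, quasi-likelihood) in R 4.3.3 on all genes, checked on simulated counts, with DESeq2 1.42.0 and limma 3.58.1 as alternatives. Adult and fetal shSCX effects had the line as a block, because both libraries of a pair come from 1 culture; over the members, the highest correlation of a shSCX library was with NT of the same line in 8 of 8 lines. The standard error is the log2 fold change divided by the square root of F. Groups follow titles and the cell type label, and the series calls the lines independent.

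The members, lists and tests were chosen with earlier results of these data known. Named genes were at most 2 per direction and comparison: by largest SD (highest in an adult or a fetal NT library), and by called size, then smallest p, in the adult and shSCX stage tests. Gene lists by symbol were not analysed here. Alternatives are in the closing section.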

Additional observations from a re-analysis of the deposited data

Results flagged for a closer look

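Outlying libraries were sought with Dixon's ratio (its 95% critical value) in 60 groups of 4 values, and 4 were found. A chance rate of about 1 in 20 holds only for values not chosen by their spread. The named genes and the line counts come from a list chosen by spread over the NT libraries, so nothing is read from this number. ENSECAG00000018100 was present in 1 fetal line only: 316d was far above the other fetal libraries with NT (3.30 on the log2(CPM + 1) scale) and with shSCX (4.22). TB171012 stood below the other adult NT libraries for ENSECAG00000014081 (3.25) and for ENSECAG00000029840 (3.17). Both genes belong to a list on which TB171012 was often lowest.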

How the results depend on the processing

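Which genes were chosen depended on the lines and the limits. Of the 150 genes, 64 were also chosen without 316d, and 132 at most with any 1 line left out. Leaving out a fetal line changed the mean fetal ratio, on which the limit was set, as well as the SD. The number of the 150 genes also chosen was 95 with a minimum of 1 CPM, 93 with 10 CPM and 39 with no limit on the fetal ratio. With other pseudocounts, TMM scaling or centring on the stage it was at least 101. The median r between NT and shSCX was 0.83 with Spearman's correlation and 0.87 to 0.92 with a line left out. Members called in adult lines were 0 without the replicate block, 22 with DESeq2 and 0 to 4 with a line left out (0 without S, 1 without TB171012), and all tested genes called were 1 without the block, 709 with DESeq2, 508 with all 16 libraries in one fit and 27 to 237 with a line left out, against 325. Over all tested genes the fetal calls were 58 without the block and 270 to 2221 with a line left out, against 2138. Stage calls among all genes were 55 with DESeq2 and 1 to 5 with a line left out for shSCX (1 otherwise), and 22 with DESeq2, 2 with no filter, 2 with library totals and 0 to 3 with a line left out for NT. For the difference of effects DESeq2 called 38 of all genes. Members called in fetal lines were 2 with DESeq2, 1 with no filter on low counts, 1 with all 16 libraries in one fit and 0 to 4 with a line left out (4 without 316d). Between stages they were 3 (shSCX) and 1 (NT) with DESeq2, and 0 to 1 with a line left out, the 1 being ENSECAG00000037980 without 319d. No alternative called a member for the difference of effects. No alternative changed the direction of the adult fold change of the 6 genes named for it or of the shSCX stage fold change of the 4 named for it; other fold changes were not refitted. The median of the mean adult ratio was -0.20, and -0.20 with TMM scaling, -0.12 with a pseudocount of 5 CPM and -0.13 without TB130911. With 10 or fewer counts as the limit for a low value, 14 genes rather than 8 were low in one NT library and present in another; this and the alternatives for the 2-fold changes and the adult median were chosen after seeing the data. The cause of these differences was not tested. There are 4 lines per stage and 1 library per line and hairpin, which limits precision.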

Other observations

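The limit on the fetal ratio removed many variable genes. When the 9556 genes at 5 CPM or more beyond the 100 most abundant were ranked with no such limit, the top 150 held 39 of the genes described above and 111 others. Of the 111, 79 had a mean fetal ratio above 0.3 and 32 below -0.3. Their pattern over lines was kept as well, with a median r of 0.85 between NT and shSCX libraries, against 0.93 for the 39. Among the 9556 genes, 13 had 3 or fewer counts in an NT library and 100 or more in another, of which 8 are described above and 5 were left out by the limit.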
